A study of Vitis vinifera with 6 samples.

Results

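In stenospermocarpic grapes fertilization takes place and a seed begins to form, but its development stops early and leaves a soft rudiment, the seed trace. Traces and seeds of one age therefore differ in how far the seed coat, endosperm and embryo have developed, and a transcript can be plentiful in one and barely present in the other. The 93 genes described here were at a level of at least 5 RPKM in each of 3 trace libraries and under 1 RPKM in each of 3 seed libraries, out of 29536 genes with readable values. RPKM is a read count divided by the length of the gene model and by the reads of the library. The genes were chosen by these RPKM levels in all 6 libraries, so the levels are given as a description with no test. The same limits were met by 3 further genes, 1 in a range of chromosome 5 identifiers and 2 on scaffold VIT_18s0041 of chromosome 18, which were set aside.

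RNA came from berries of Red Globe × Crimson Seedless F1 hybrids of Vitis vinifera, picked 4 weeks after anthesis at 10 to 12 mm across. Seed traces were taken from 3 seedless hybrids labelled sdi+ (669-60, 670-17 and 675-17, replicates 1 to 3), and seeds from 3 seeded hybrids labelled sdi- (665-17, 671-19 and 677-06, replicates 1 to 3). A library stands for 1 hybrid, with seed contents of 12 to 50 fruits combined, and replicates of a class are different plants of the cross. All hybrids grew in the same field under the same management. Library totals recovered from the RPKM values were 6576771 to 7470208 reads for traces and 7494970 to 9267653 for seeds. Seedless replicate 1 stood apart, with Pearson correlations of 0.847 and 0.862 to the other traces across 18749 genes on the log2 scale, against 0.944 between those and 0.959 to 0.961 among seeds. To the seeds, seedless replicate 1 correlated at 0.728 to 0.743, and seedless replicates 2 and 3 at 0.866 to 0.889. Seedless replicates 2 and 3 were thus each closer to every seed library than to seedless replicate 1. In bulk tissue, fewer cells of a type and less RNA per cell cannot be told apart. None of the 93 identifiers is paired with a gene name in the sources used here, so their products are not given, and the labelled tissues were not checked against marker genes.

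The 93 genes were 0.746% of the 12470 genes at 5 RPKM or more in every trace, and 0.861% of the 10799 genes under 1 RPKM in every seed. The mirrored list, at 5 RPKM or more in every seed and under 1 RPKM in every trace, held 7 genes, which is 0.0561% of the 12483 genes at 5 RPKM or more in every seed. Trace means over the 93 genes ran between 5.56 and 143.3 RPKM with a median of 18.8, against a median of 22.6 for all genes at 5 RPKM or more in every trace. Of the 93, 54 averaged under 20 RPKM and 14 averaged 50 or more, and a single one was among the 1000 highest genes of the traces, at rank 665. These levels rest in part on seedless replicate 1. Over seedless replicates 2 and 3 alone the median was 10.3 RPKM, against 22.1 RPKM for all genes at 5 RPKM or more in every trace, 74 of the 93 averaged under 20 RPKM and 4 averaged 50 or more, and the highest rank was 1276. The lowest trace value was at least 10 RPKM for 30 of them. By library the median level was 27.6, 11.1 and 9.64 RPKM in the traces and 0.106, 0.279 and 0.0851 RPKM in the seeds, here and below in the order of the replicates. Together they took 0.649%, 0.185% and 0.17% of the reads of the trace libraries and 0.00329%, 0.00447% and 0.00263% of those of the seed libraries. In the fit of all 18749 tested genes (limma, adjusted p under 0.05) 93 of 93 passed as higher in traces, where 7.18% of all tested genes did. The rule read the same contrast, so nothing is read from that count. Their log2 fold changes, on the log2(RPKM + 1) scale, were 2.23 to 6.52 with a median of 3.81, against -0.04 over all tested genes. With the genes at 0 in every seed placed at the log2 of the lower bound given below, the median was 3.82. That bound is a ratio of RPKM values without the added 1, so this median mixes both scales.

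**Figure D1:**
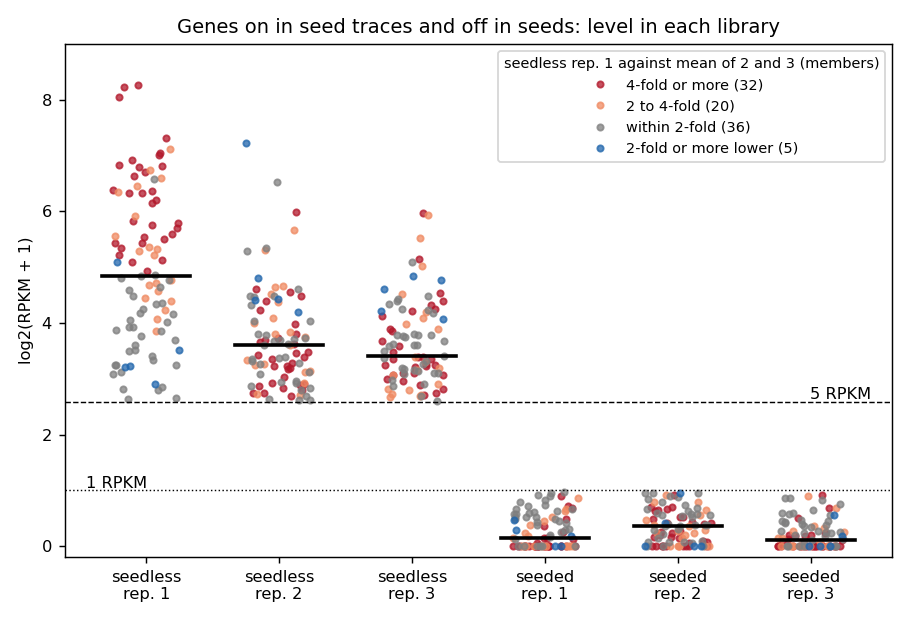
Level of each of the 93 genes in each library, as log2(RPKM + 1), with traces on the left and seeds on the right; bars are medians, dashed and dotted lines the limits of 5 and 1 RPKM, and colours the ratio of seedless replicate 1 to the mean of seedless replicates 2 and 3. The gap between the classes is set by the choice of genes. Seedless replicate 1 reaches 305 RPKM and has a median of 27.6, against 11.1 and 9.64 in the other traces.

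The gene with the highest floor in traces was VIT_18s0001g15220, at 305, 62.7 and 62.1 RPKM in traces and 0.104, 0.437 and 0 RPKM in seeds. It lies on chromosome 18, away from the scaffold that was set aside. VIT_08s0058g01390 followed at 137, 49.6 and 60.1 RPKM in traces and 0.437, 0.737 and 0.114 RPKM in seeds. In both, the first trace library was the highest by more than 2-fold over the mean of the other traces. VIT_07s0005g04890 had 95.3, 90.8 and 20.6 RPKM in traces and 0, 0.108 and 0 RPKM in seeds, so here it was the third trace that was low. VIT_02s0025g04340 had 263, 20.1 and 20.1 RPKM in traces and 0, 0.446 and 0 RPKM in seeds. Its trace mean of 100.9 ± 140 RPKM (SD, n = 3) rests on the first library.

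Of the 93 genes, 16 had no read in any seed library. VIT_00s0366g00020, on an unplaced scaffold, had 112, 22.4 and 22.1 RPKM in traces. Counting 3 reads per seed library as the floor, it was at least 299-fold higher in traces. VIT_08s0007g06060 had 120, 23.3 and 18 RPKM in traces, at least 159-fold above that floor. VIT_16s0098g00860, at 95.5, 24.3 and 31.5 RPKM in traces, was at least 142-fold higher. VIT_16s0039g02380 had 86.5, 24 and 21.9 RPKM, at least 81.2-fold higher. These 4 genes share a pattern in which the first trace library is 3.42 to 5.83 times the mean of the others. Their bounds use the mean of the traces and so rest on that library: over seedless replicates 2 and 3 alone they were at least 127-fold, 61.0-fold, 78.7-fold and 42.2-fold in the same order. Over all 16 genes the lower bound was 14.9-fold to 299-fold with a median of 61.6, or 9.07-fold to 127-fold with a median of 27.0 without seedless replicate 1. Such floors cover counting error only.

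VIT_13s0064g01460 has the highest trace mean among the 16 and is the least certain. It had 33.3, 149 and 27.6 RPKM in traces, which on a recovered gene-model length of 88 bases is only 21, 98 and 16 reads. At that length a single read in the shallowest seed library would be worth 1.52 RPKM, so the seed limit could be met only by no read at all. The gene was at least 15.4-fold higher in traces. A multiple of the length can fit as well, and a read would then be worth less. By recovered length this gene was the only one of the 93 so short. Recovered lengths ran up to 4552 bases with a median of 1283, against 1472 over the 12461 recovered genes at 5 RPKM or more in every trace.

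For most of the list "off" was a low level and not an absence of reads. Reads were found in at least 1 seed library for 77 of the 93 genes and in all 3 for 42. The sum over the seeds was at most 35 reads for any gene and 3 or fewer for 38 of them. VIT_02s0025g02960 stood highest in seeds, at 10.4, 6.78 and 11.1 RPKM in traces and 0.956, 0.806 and 0.775 RPKM in seeds. VIT_03s0097g00140 had 7.48, 11.7 and 12.9 RPKM in traces and 0.669, 0.846 and 0.698 RPKM in seeds, and VIT_01s0150g00300 had 11.9, 6.35 and 7.9 RPKM in traces and 0.723, 0.609 and 0.829 RPKM in seeds. In all 3 genes the seed libraries lay close together and the trace libraries did not share a common highest replicate.

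The limits fall within a continuous range. Just inside the trace limit were VIT_00s0286g00020, VIT_07s0005g04020 and VIT_00s0202g00040, with lowest trace values of 5.06, 5.18 and 5.19 RPKM. Just outside it were VIT_13s0019g02540, VIT_03s0017g01940 and VIT_05s0102g00830, with lowest trace values of 4.98, 4.95 and 4.9 RPKM. Just outside the seed limit were VIT_00s0207g00130, VIT_13s0019g03520 and VIT_19s0090g01340, with highest seed values of 1, 1.01 and 1.04 RPKM. VIT_19s0090g01340 had 478, 60.7 and 39.7 RPKM in traces and 1.04, 0.437 and 0.54 RPKM in seeds, and in seedless replicate 1 it was higher than any of the 93 genes.

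Seedless replicate 1 held the highest value for 72 of the 93 genes (77.4%), against 38.2% of the other 12377 genes at 5 RPKM or more in every trace, and 67.1% of the 870 of these that rose in traces. The ratio of seedless replicate 1 to the mean of seedless replicates 2 and 3 had a median of 2.63 over the 93 genes, 0.966 over those other genes, and 1.33 over the 870 that rose. It was at least 4 for 32 of the 93 genes (34.4%), for 1.35% of the other genes and for 4.37% of those that rose. Between seedless replicates 2 and 3 the median ratio was 0.997. Of the 93 genes 78 (83.9%) were within 2-fold between them, against 97.1% of the other genes and 95.4% of those that rose. The list is also lower in these 2 libraries, at a median of 10.3 RPKM, against 22.1 RPKM for all genes at 5 RPKM or more in every trace. The shares are not matched for level, and the rule read these values. These differences between lists were not tested. Across the 93 genes, log2 levels correlated at a Pearson r of 0.61 between seedless replicates 2 and 3, and at 0.34 and 0.31 between seedless replicate 1 and each of them. The correlations are across genes, the minimum of 5 RPKM bounds all 3 libraries, and they carry no test. Whether the hybrid, the stage of its traces or the library sets the level in seedless replicate 1 cannot be told apart with a single library per hybrid.

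**Figure D2:**
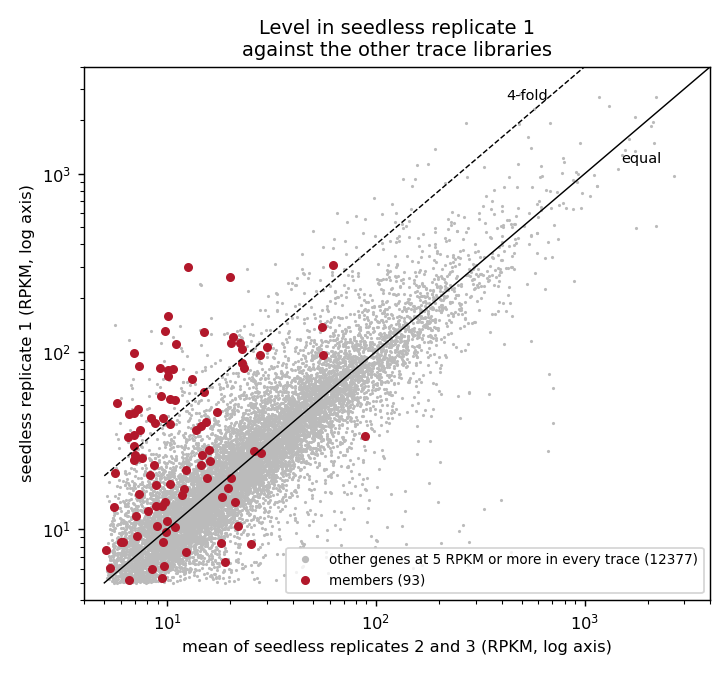
Level in seedless replicate 1 against the mean of seedless replicates 2 and 3, in RPKM on log axes, for the 93 genes in red and the other 12377 genes at 5 RPKM or more in every trace in grey. Solid and dashed lines mark equal levels and a 4-fold ratio. Of the 93 genes, 32 lie at or above the dashed line.

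The extremes of that ratio were far apart. VIT_03s0063g02250 had 300.1, 17.7 and 7.36 RPKM in traces and 0, 0.119 and 0.073 RPKM in seeds, with seedless replicate 1 at 23.9 times the mean of the other traces. VIT_01s0011g05190 had 158, 11.7 and 8.47 RPKM in traces and 0, 0 and 0.146 RPKM in seeds, a ratio of 15.6. VIT_14s0066g02060 had 97.9, 5.67 and 8.23 RPKM in traces and no read in seeds, a ratio of 14.1. In the other traces these 3 genes averaged 12.6, 10.1 and 6.95 RPKM, against a median of 10.3 RPKM for that mean over the list. In the other direction, VIT_00s0254g00030 had 8.3, 26.9 and 23.4 RPKM in traces and 0.136, 0 and 0 RPKM in seeds, and VIT_00s1008g00020 had 6.51, 20.4 and 17.6 RPKM in traces and no read in seeds. Their ratios were 0.33 and 0.343, and VIT_13s0064g01460 was the third lowest at 0.377. At a ratio of 0.5 or less there were 5 genes, and 36 lay within 2-fold. Read on the other 5 libraries, without seedless replicate 1, the limits gave 108 genes, and 93 of these were the genes described here, as dropping a condition must. The 32 genes at a ratio of 4 or more had medians of 75.8, 9.36 and 9.26 RPKM in the traces, and the 36 within 2-fold had 13.5, 10.3 and 11.1 RPKM. Both medians of the other traces lay within 9.26 to 11.1 RPKM.

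The few seed reads were also unevenly spread. Seeded replicate 2 held reads of 72 of the 93 genes, and seeded replicates 1 and 3 of 52 and 51. Summed over the list, the level was 22.3, 29 and 16.6 RPKM in seeded replicates 1 to 3. A gene had reads in seeded replicate 2 alone in 18 cases (19.4%), in seeded replicate 1 alone in 2 and in seeded replicate 3 alone in 1. Among 5190 other genes under 1 RPKM in every seed and above 0 in a trace, these shares were 8.07%, 7.73% and 6.22%. Of the 18 genes, 15 had a seedless replicate 1 at 2 times or more the mean of the other traces, with a median ratio of 4.97. Over all 93 genes it was 52 (55.9%), with a median of 2.63. The 16 genes with no seed read had a median ratio of 4.32, and the 42 with reads in all 3 seeds 1.52. A high ratio was thus not particular to the 18, each of which had 1 to 5 reads in seeded replicate 2. The 32 genes with a ratio of 4 or more summed to 3.33, 7.7 and 2.92 RPKM in seeded replicates 1 to 3, whereas the 36 genes within 2-fold summed to 14.7, 14.6 and 10.3 RPKM. Seeded replicate 2 is the deepest library, at 9267653 reads. The part of depth in this pattern was not tested.

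**Figure D3:**
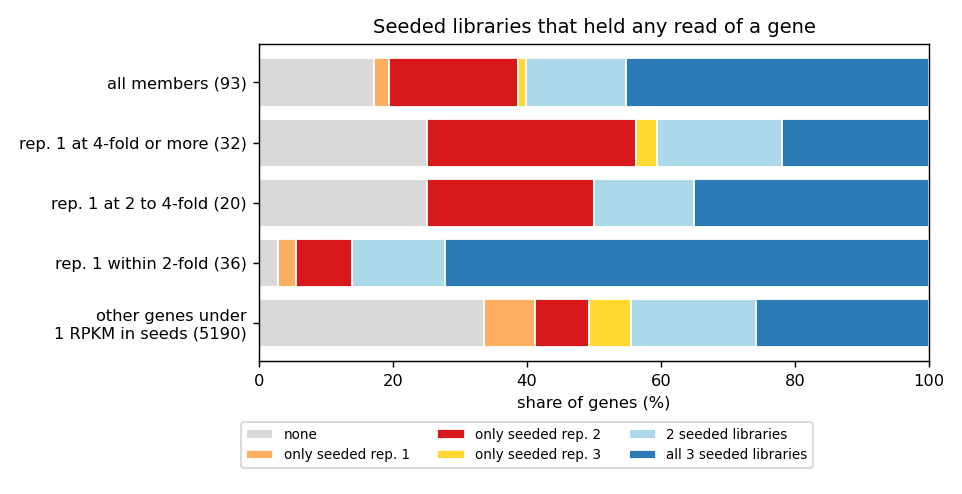
Share of genes, in percent, by the seed libraries in which any read was found, for the 93 genes, for 3 classes of them by the ratio of seedless replicate 1 to the other traces, and for 5190 other genes under 1 RPKM in every seed (numbers of genes in brackets; the 5 genes at a ratio of 0.5 or less have no bar of their own). Reads in seeded replicate 2 alone take 31.2% of the genes at a ratio of 4 or more and 8.33% of those within 2-fold. No read in any seed takes 25% and 2.78%, and reads in all 3 seeds take 21.9% and 72.2%.

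An identifier of this gene set names the chromosome, then the scaffold and the gene, and numbers rise along a scaffold. The 93 genes were scattered over 18 of the 19 chromosomes, with 6 on unplaced scaffolds and none on chromosome 15, which has 1120 listed genes. Chromosomes 5 and 14 held 9 each, and chromosomes 1 and 16 held 8 each. Per 1000 listed genes there were 6.21 on chromosome 16, 5.63 on chromosome 5, 5.5 on chromosome 2 and 5.25 on chromosome 1, against 3.15 over all. Chromosomes 9, 10, 11 and 17 had 1 each, or 0.776 to 1 per 1000. The counts are small and were not tested. On chromosome 18 there were 6, or 2.63 per 1000, leaving out the 2 on the scaffold set aside. Of 53 scaffolds with any of the genes 33 had a single one, and the most was 5, on the long scaffold VIT_18s0001 with 1449 listed genes. Not all scaffolds with several of the genes had 1 profile over the traces. On VIT_18s0001, VIT_18s0001g11580 had 131, 10 and 9.51 RPKM in traces and 0, 0.116 and 0 RPKM in seeds, whereas VIT_18s0001g02330 had 14.2, 9.19 and 33 RPKM in traces and 0.352, 0.296 and 0 RPKM in seeds. VIT_18s0001g03810 was close to level over the traces, at 11.2, 8.69 and 11.2 RPKM, with 0.228, 0.863 and 0.83 RPKM in seeds. On VIT_05s0049, VIT_05s0049g00550 had 110, 5.48 and 16.5 RPKM in traces and no read in seeds, and VIT_05s0049g00310 had 27.9, 19 and 12.8 RPKM in traces and 0.438, 0.59 and 0.182 RPKM in seeds.

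Tandem copies are common in grapevine gene families, so the genes next to each member were examined; the rule did not read them. Neighbours within 5 listed genes on either side of a member, on its scaffold, numbered 787 without the members themselves, of which 475 were tested. In traces 71 of them rose (14.9%) and 16 fell (3.37%), against 7.18% and 5.1% of all tested genes (limma, adjusted p under 0.05). Directly beside a member, 32 of 109 tested neighbours rose (29.4%) and 4 fell. A gene was tested if 3 or more libraries reached 1 RPKM. Of the 32, 16 were under 1 RPKM in every seed, so they met this filter through the traces alone, which favours a rise. With no filter, 7 of 175 rose directly beside a member (4%) and 21 of 787 within 5 genes (2.67%), against 1.88% of all genes. With the filter and without seeded replicate 1, 2 or 3, 10, 5 and 5 of the 109 rose (9.17%, 4.59% and 4.59%), against 2.44%, 1.62% and 1.78% of all tested genes. With the replicate number as a block it was 21 (19.3%, against 5.42%). At 10 genes on either side, with all 6 libraries and no block, 102 of 907 rose (11.2%). The median log2 fold change was 0.48, 0.06 and 0.01 at 1, 5 and 10 genes, against -0.04 over all tested genes. Without seedless replicate 1, 83 of the 475 rose (17.5%), against 8.91% of all tested genes. Without seeded replicate 1, 2 or 3, 22, 15 and 14 of the 475 rose (4.63%, 3.16% and 2.95%), against 2.44%, 1.62% and 1.78% of all tested genes.

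Rises lay next to each other outside the list as well. For the 93 genes, 31.9% of 113 tested adjacent places were held by a gene that rose. These places include the member pair VIT_02s0025g04300 and VIT_02s0025g04310, whose rise the rule fixed, and a gene between members counts once for each. For the 1253 other genes that rose it was 19.4% of 1672 places. For the 870 of these at 5 RPKM or more in every trace it was 17.6% of 1209. For genes that fell it was 5.82%, and for all tested genes 6.61%. The difference between the list and the other genes that rose was not tested. Of the 32 adjacent genes that rose, 16 were under 1 RPKM in every seed and 12 were at 5 RPKM or more in every trace. Some just missed the seed limit: VIT_06s0004g01390 had 125, 18.7 and 31.3 RPKM in traces and 1.15, 0.835 and 0.326 RPKM in seeds. VIT_02s0087g01020 had 89.7, 19.1 and 16.8 RPKM in traces and 1.28, 1.18 and 1.14 RPKM in seeds, beside the member VIT_02s0087g01010 at 103, 11.3 and 34.3 RPKM in traces and 0.191, 0.887 and 0 RPKM in seeds. Others were plentiful in both classes, such as VIT_14s0068g00500 at 97.0 RPKM on average in traces and 33.2 RPKM in seeds. Reads that fall in near-identical copies, or in overlapping gene models, could be split or shared by the authors' counting; whether this touches neighbouring values was not tested.

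**Figure D4:**
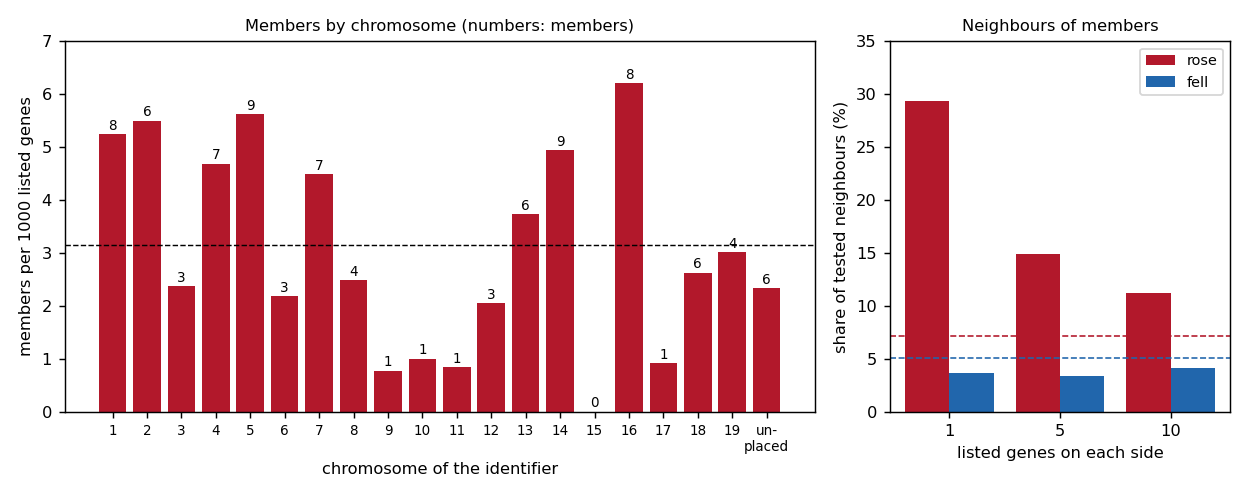
Left, the 93 genes per 1000 listed genes on each chromosome, with the number of genes above each bar and a dashed line at 3.15 over all. Right, the share of tested neighbours that rose (red) or fell (blue) in traces within 1, 5 and 10 listed genes of a member, with dashed lines at 7.18% and 5.1% for all tested genes. With all 6 libraries in, the share that rose is 29.4% beside a member and 11.2% within 10 genes. With no filter on level it is 4% beside a member, against 1.88% of all genes. Without a seed library the share beside a member is 4.59% to 9.17%, against 1.62% to 2.44% of all tested genes, and the dashed lines do not apply to it.

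There was 1 strict run: VIT_02s0025g04300 and VIT_02s0025g04310, on chromosome 2, followed each other with no listed gene between. Its 2 genes were 2.15% of the 93. In strict runs were 21.9% of the 1253 other genes that rose and 11.6% of the 957 that fell. The lists differ in size, which bears on the share in runs, and the difference was not tested. VIT_02s0025g04300 had 53.3, 7.99 and 13.9 RPKM in traces and no read in seeds. VIT_02s0025g04310 had 106, 15 and 45.1 RPKM in traces and 0, 0.11 and 0 RPKM in seeds. In both, all traces lay far above all seeds and seedless replicate 1 was highest. The next 2 identifiers were not members but rose as well. VIT_02s0025g04320 had 14.2, 1.95 and 4.06 RPKM in traces and 0, 0.262 and 0 RPKM in seeds (limma adjusted p = 0.0418), and VIT_02s0025g04330 had 4.82, 9.84 and 17.8 RPKM in traces and 0.57, 0.36 and 0.891 RPKM in seeds (limma adjusted p = 0.0149). VIT_02s0025g04340, described above, closes the stretch, and VIT_02s0025g04350 beyond it did not pass, at a mean of 14.6 RPKM in traces and 12.1 RPKM in seeds. On the other side VIT_02s0025g04280 had 80.3, 4.63 and 1.68 RPKM in traces with no seed read. A log2 fold change of 3.42 for it did not pass (limma adjusted p = 0.105). The 5 genes from VIT_02s0025g04300 to VIT_02s0025g04340 did not share 1 order over the traces, since VIT_02s0025g04330 was lowest in seedless replicate 1.

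With 1 other listed gene allowed between neighbours there were 5 runs holding 10 of the 93 genes, and with 4 allowed there were 6 runs holding 15, on chromosomes 1, 2, 4, 7, 14 and 18. The longest of these held 3 members. With 1 and 4 genes allowed, runs held 10.8% and 16.1% of the 93 genes. For the other genes that rose it was 30.9% and 47.2%, and for genes that fell 18.3% and 37.3%, again in lists of other sizes. On chromosome 4, VIT_04s0008g00310 had 39.3, 12.5 and 8.1 RPKM in traces and 0, 0.175 and 0 RPKM in seeds. VIT_04s0008g00330 had 59.2, 16 and 13.9 RPKM in traces and 0, 0.202 and 0 RPKM in seeds, and VIT_04s0008g00370 had 18, 11.3 and 9.31 RPKM in traces and 0, 0.037 and 0 RPKM in seeds. All 3 were highest in seedless replicate 1, and the only seed reads of all 3 were in seeded replicate 2. Beside them, VIT_04s0008g00300 and VIT_04s0008g00320 rose too, with lowest trace values of 2.71 and 1.56 RPKM. VIT_04s0008g00340 and VIT_04s0008g00350, inside the same stretch, had at most 0.194 RPKM in any library. A further member, VIT_04s0008g00440, lies a few genes on, at 112, 21.5 and 19.1 RPKM in traces and 0, 0.349 and 0.13 RPKM in seeds.

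The stretch on chromosome 7 differed in its trace libraries. VIT_07s0005g03960 had 15.2, 15.4 and 21.3 RPKM in traces and 0, 0.164 and 0.135 RPKM in seeds. VIT_07s0005g04050 had 17.1, 21.3 and 17.7 RPKM in traces and 0.525, 0.324 and 0.328 RPKM in seeds. VIT_07s0005g04020 lies between them at 6.03, 5.18 and 5.47 RPKM in traces and 0.241, 0.435 and 0.466 RPKM in seeds. In all 3 genes seedless replicate 1 was within 2-fold of the other traces. VIT_07s0005g04040, the listed gene between VIT_07s0005g04020 and VIT_07s0005g04050, rose as well (limma adjusted p = 0.0389). It had 13.6, 10.4 and 3.49 RPKM in traces and 0.524, 1.86 and 1.06 RPKM in seeds. In the same stretch VIT_07s0005g03980 was at 129 RPKM on average in traces and 150 RPKM in seeds and did not pass, so the stretch also holds a plentiful gene that did not pass. On chromosome 18, VIT_18s0001g15220 is followed after 1 gene by VIT_18s0001g15240, which had 26.9, 38.1 and 17.9 RPKM in traces and 0.554, 0.934 and 0.578 RPKM in seeds; the gene between reached at most 1.02 RPKM in any library. On chromosome 1, VIT_01s0011g05170 had 79.1, 10.1 and 10.2 RPKM in traces and no read in seeds, and is followed after 1 gene by VIT_01s0011g05190. On chromosome 14, VIT_14s0083g00850 had 9.66, 12.2 and 7.65 RPKM in traces and 0.093, 0.472 and 0 RPKM in seeds, and VIT_14s0083g00900 had 10.5, 17.3 and 26.3 RPKM in traces and 0.224, 0.943 and 0.467 RPKM in seeds. Of the 3 listed genes between them, VIT_14s0083g00890 and VIT_14s0083g00880 rose and VIT_14s0083g00870 did not pass.

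**Figure D5:**
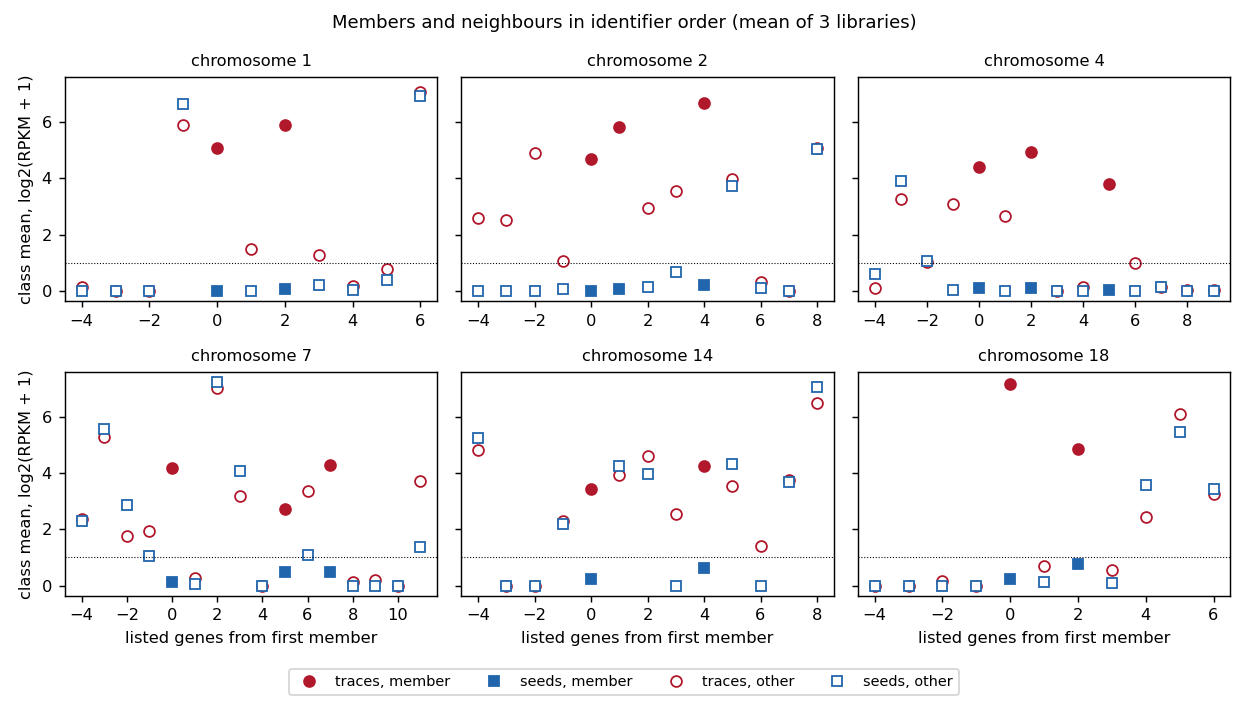
Class means of 3 libraries, as log2(RPKM + 1), for the genes in and around the 6 runs with up to 4 other listed genes between members; the x axis counts listed genes from the first member, circles are traces and squares are seeds, filled for members and open for other genes, and the dotted line is 1 RPKM. In every panel, some of the open circles next to members lie above their open squares. On chromosomes 2, 4, 7 and 14, some of these genes rose, and on chromosomes 1 and 18 the gene between the members was not tested. On chromosomes 7 and 14, some genes between members did not pass the test.

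Of the genes set aside, VIT_05s0077g01580 had 577, 73.8 and 87.4 RPKM in traces and 0.174, 0.293 and 0 RPKM in seeds, a higher trace mean than any of the 93. VIT_18s0041g01560 had 8.53, 6.53 and 9.65 RPKM in traces and no read in seeds. The adjacent VIT_18s0041g01570 had 19.1, 12.4 and 13.6 RPKM in traces and 0, 0.74 and 0.229 RPKM in seeds.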

How the data were processed

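RNA of seed traces and seeds was sequenced from TruSeq stranded mRNA libraries, per the labels' protocols. The authors deposited RPKM per gene for all 6 libraries as a single table. TopHat2 2.0.13, HTSeq 0.5.4p5 and edgeR 2.2.6 are named in the submitters' processing notes without a role; build and strand setting are not given in the sources used here. Of 29548 rows, 12 had an unreadable value and were left out, and none of these would meet the limits with the doubled point read as 1. Columns were matched through the descriptions and classes taken from the phenotype; titles of the seeded samples read Seededless, and every direction rests on the other labels.

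Lengths, totals and whole reads were recovered from the steps of the values: a gene's length is the smallest that makes all 6 values whole, and 22270 of 24536 genes above 0 passed, with a chance of fit up to 0.01, among them all 93 members. Whether the totals are raw or adjusted is not known, and a multiple of a length can fit as well.

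A gene entered the test when 3 or more libraries reached 1 RPKM, which left 18749, taken as log2(RPKM + 1), a scale that understates the change of low genes. The test used limma 3.58.1 in R 4.3.3 (eBayes with trend, two-sided, Benjamini-Hochberg, 0.05). It was also run on simulated data with normal noise of equal spread in both classes, which does not cover a trace library that stands apart. All members passed the filter of 1 RPKM through the traces alone, as did 16 of the 32 risen genes directly beside them. The rest used pandas 2.3.3, numpy 2.4.6, matplotlib 3.10.9 and Python 3.11.15. 0 identifiers matched the RefSeq gene table (ASM3070453v1), so no sequence is shown. Members, lists and tests were chosen with earlier results of these data known. Named are the 8 members highest by their lowest trace, the 5 highest at 0 in every seed, the 3 highest and 3 lowest by the ratio of seedless replicate 1, those in strict runs, the 3 highest in seeds and those by the limits; other identifiers, in and around wider runs or set aside, were named after their values were seen.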

Additional observations from a re-analysis of the deposited data

How the results depend on the processing

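The size of the list followed its limits: 299 genes at 2 RPKM in traces, 30 at 10, 58 under 0.5 RPKM in seeds, 160 under 2, and 107 to 147 on 5 libraries (147 without seedless replicate 3). The mirrored list had 31, 1, 4 and 24 genes at those limits, 11 under quantile normalization and 8 to 14 without a library. Quantile normalization left 68 of the 93 genes; this, median scaling, the mirrored list and limma's voom on recovered reads were added after the data were seen. Genes in strict runs were 33 at 2 RPKM, 0 at 10, 12 under 2 RPKM in seeds, 4 with the ranges kept in, 4 to 10 without a library, and 10 and 15 with 1 and 4 genes allowed between. Over all genes 2303 passed, 1346 of them rises; 1010 passed with no filter, 350 at 0.01, and 429 to 2909 without a library (1367 without seedless replicate 3, and 672, 429 and 449 without seeded replicates 1 to 3). Of the 93 genes 58 passed with no filter, 57 at 0.01, 50 by voom, and 57 to 93 without a library (60, 57 and 58 without seeded replicates 1 to 3). Risen neighbours within 5 genes were 21 with no filter, 36 with a filter of 5 RPKM, 12 at 0.01, 47 by voom, 14 to 83 without a library and 32 with 1 gene on each side; they were above the share of all tested genes each time, at 2.53% against 1.33% for 0.01. Directly beside members 5 to 33 rose without a library (4.59% to 30.3%, against 1.62% to 8.91% of all tested genes). With no filter it was 7 (4%, against 1.88%) and with a filter of 5 RPKM 11 (16.9%, against 6.91%). By voom it was 20 (18.3%, against 5.32%), and at 0.01 it was 5 (4.59%, against 1.33%). Causes of these moves were not tested. The median ratio of seedless replicate 1 stayed at 2.53 to 2.66. Without seedless replicate 1, also chosen after the data were seen, the median trace level fell to 10.3 RPKM, against 18.8, and the median lower bound of genes without seed reads to 27.0-fold, against 61.6. Quantile normalization gave a median log2 change of all genes of -0.11, against -0.04. The sign of a member's fold change is fixed by the limits and is no sign of stability. With the replicate block 1714 genes, 89 of the 93 and 53 of the 475 neighbours (11.2%, against 5.42%) passed, and 21 of 109 directly beside members. Every number is another hybrid, so no pairing was assumed. Deviations of same-numbered libraries correlated at 0.07, 0.18 and 0.1, higher than all differently numbered pairs, at -0.125 to 0.03. Whether libraries of 1 number share a processing step is not given, and was not tested.

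For a length of 1 kb, 3 reads come to 0.324 to 0.456 RPKM in these libraries. Of the 279 seed values of the list 104 were 0 and 83 were 1 to 3 reads.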
